A study of Mus musculus with 9 samples.

Results

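The genes followed here are 9 components of Notch signalling in mouse ear epidermis, chosen by their symbols in the epidermal count table. They are the receptors Notch1, Notch2 and Notch3, the ligands Jag1, Jag2 and Dll1, the DNA-binding factor Rbpj and the target genes Hes1 and Hey1. All 9 symbols were found among the 52550 genes listed, and all 9 passed the filter on low counts in each of the 3 comparisons. Epidermal sheets of mouse ears were sequenced in 9 libraries, 3 from each of 3 groups of wild type C57BL/6 mice aged 8 weeks (C57BL/6J in the study's methods). In the VAS + H2O group, Vaseline (VAS) was applied to the skin for 5 days and water was given by gavage for 10 days, beginning 5 days before the Vaseline. The IMQ + H2O group received imiquimod (IMQ) cream in place of Vaseline, with the same water. Imiquimod activates Toll-like receptor 7 and causes a psoriasis-like dermatitis, in which the epidermis thickens and leukocytes enter the skin. The IMQ + XYF group received imiquimod and, in place of water, 200 μl of a decoction of Xiao-Yin-Fang (XYF), a herbal formula, at 23.3 mg/g. Every mouse was therefore handled by gavage and by topical application. Male mice were used in the study. Its methods describe the sheets as taken from ears of a pair of mice, whereas its figure legends give n = 3 for each group. How mice were divided among libraries is not stated, so the p-values below measure only the spread between libraries, which may be partly technical.

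Notch receptors are single-pass membrane proteins that are cleaved after a ligand on a neighbouring cell binds them. Endocytosis in the ligand-bearing cell exposes the cleavage site, ADAM proteases and then γ-secretase cut the receptor, and the freed intracellular part enters the nucleus, where it joins Rbpj and Mastermind-like co-activators on DNA. In the interfollicular epidermis the pathway is known for driving basal keratinocytes out of the cell cycle and into differentiation, and loss of Notch1 in keratinocytes is known to impair the skin barrier. Fringe enzymes add sugars to the receptor and so change which ligands it answers to. Members of the Hes and Hey families are transcriptional repressors that serve as its classic targets.

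Library totals ranged from 30298275 to 64771160 counts, so that a count of 3 corresponded to 0.0463 to 0.0990 CPM (counts scaled to library size) and covers counting error only. CPM was computed with TMM factors of 0.956 to 1.06. Summed levels of basal keratinocyte markers were 17750 to 25485 CPM, and those of suprabasal markers 32427 to 51183 CPM, so that the defining genes of the labelled tissue were abundant. Other cells were present at lower levels and differed between groups. The 8 genes of mural cells and smooth muscle summed to 49.2 to 111 CPM in VAS + H2O, 21.3 to 32.5 CPM in IMQ + H2O and 38.3 to 44.4 CPM in IMQ + XYF, with 0 to 3 of the 8 at 0 in a library. Neutrophil genes summed to 10.9 to 12.7, 49.4 to 144 and 62.4 to 90.2 CPM in the same order. The second VAS + H2O library stood apart in dermal and muscle genes, with 646 CPM of fibroblast genes and 265 CPM of skeletal muscle genes, where the other VAS + H2O libraries had at most 104 and 8.00 CPM. The second IMQ + XYF library had 71.4 CPM of skeletal muscle genes. Counts below are therefore also given without these libraries where that changed them.

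Promoters are shown for the 3 ligand genes, whose fold changes differed in sign, and for Lfng, the Fringe gene whose window holds the letters that Rbpj is known to bind. Each is the 250 bases before a RefSeq transcription start in GRCm38.p6, printed 5′ to 3′ on the gene's strand. Capitals mark matches, on either strand, to TGGGAA (the core of the Rbpj site), CACGTG (an E-box, its own reverse complement) or TGANTCA (an AP-1 site). Of the 32851 windows in the RefSeq table, 21.6% held TGGGAA, 6.02% CACGTG and 6.75% TGANTCA. Windows were found for 7 of the 9 genes. Hes1 and Hey1 had none in the table.
Jag1, chr2:137116521-137116770, minus strand: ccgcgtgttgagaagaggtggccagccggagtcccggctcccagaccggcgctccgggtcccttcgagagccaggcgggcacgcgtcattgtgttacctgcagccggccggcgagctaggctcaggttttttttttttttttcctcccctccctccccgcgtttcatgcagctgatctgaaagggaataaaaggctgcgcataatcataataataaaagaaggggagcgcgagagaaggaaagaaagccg
Jag2, chr12:112929496-112929745, minus strand: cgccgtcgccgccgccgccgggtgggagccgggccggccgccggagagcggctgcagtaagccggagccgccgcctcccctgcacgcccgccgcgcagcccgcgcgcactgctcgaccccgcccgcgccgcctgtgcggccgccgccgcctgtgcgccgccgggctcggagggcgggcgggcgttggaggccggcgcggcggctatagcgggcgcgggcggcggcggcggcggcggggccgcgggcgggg
Dll1, chr17:15376933-15377182, minus strand: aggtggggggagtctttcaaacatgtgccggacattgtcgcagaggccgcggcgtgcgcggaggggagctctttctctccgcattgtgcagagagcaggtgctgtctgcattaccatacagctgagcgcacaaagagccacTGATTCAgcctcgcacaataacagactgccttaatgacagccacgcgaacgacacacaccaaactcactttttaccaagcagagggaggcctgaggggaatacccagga
Lfng, chr5:140607091-140607340, plus strand: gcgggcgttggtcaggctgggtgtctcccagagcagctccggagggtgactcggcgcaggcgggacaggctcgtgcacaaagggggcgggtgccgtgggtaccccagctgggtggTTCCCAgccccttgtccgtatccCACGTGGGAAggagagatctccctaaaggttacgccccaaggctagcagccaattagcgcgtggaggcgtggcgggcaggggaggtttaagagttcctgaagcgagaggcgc
The Jag1 window was 57.2% G and C and that of Jag2 87.2%, and neither held any of the 3 motifs. By the GENCODE gene positions, the Jag2 window lay wholly, and the Jag1 and Lfng windows partly, within the annotated gene. Dll1 has 2 windows in the table, of which the upstream one is printed. It held an AP-1 match 109 bases before its start, and the other held none of the 3 motifs. In Lfng the letters TGGGAA occurred 135 bases before the start on the minus strand and 108 bases before it on the plus strand, the latter overlapping the E-box. Among the 7 genes with a window, Rbpj alone had TGGGAA, 149 and 65 bases before the upstream start of those listed for it. These matches are descriptions of letters and were not tested as binding sites.

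Levels were compared between genes only after division by the length of the longest coding transcript. On this scale of CPM per kilobase, the median over the 9 libraries was 41.6 for Jag2 and 41.0 for Notch1, with overlapping ranges of 36.2 to 60.6 and 35.7 to 56.2. Jag1 (22.2), Hes1 (21.1) and Notch2 (21.0) came next and also overlapped, followed by Notch3 (16.7), Rbpj (12.04) and Dll1 (10.1). Hey1 was far lower at 0.333, with a range of 0.172 to 0.768 that met no other gene's. With the length of all annotated exons in place of one transcript, Hes1 fell below Notch3 and Rbpj below Dll1. By the transcript length Notch1 was the most abundant receptor transcript and Jag2 the most abundant ligand transcript in each library. Notch1 made up 47.1% to 60.7% of the summed receptor level and Jag2 48.7% to 66.5% of the summed ligand level.

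**Figure D1:**
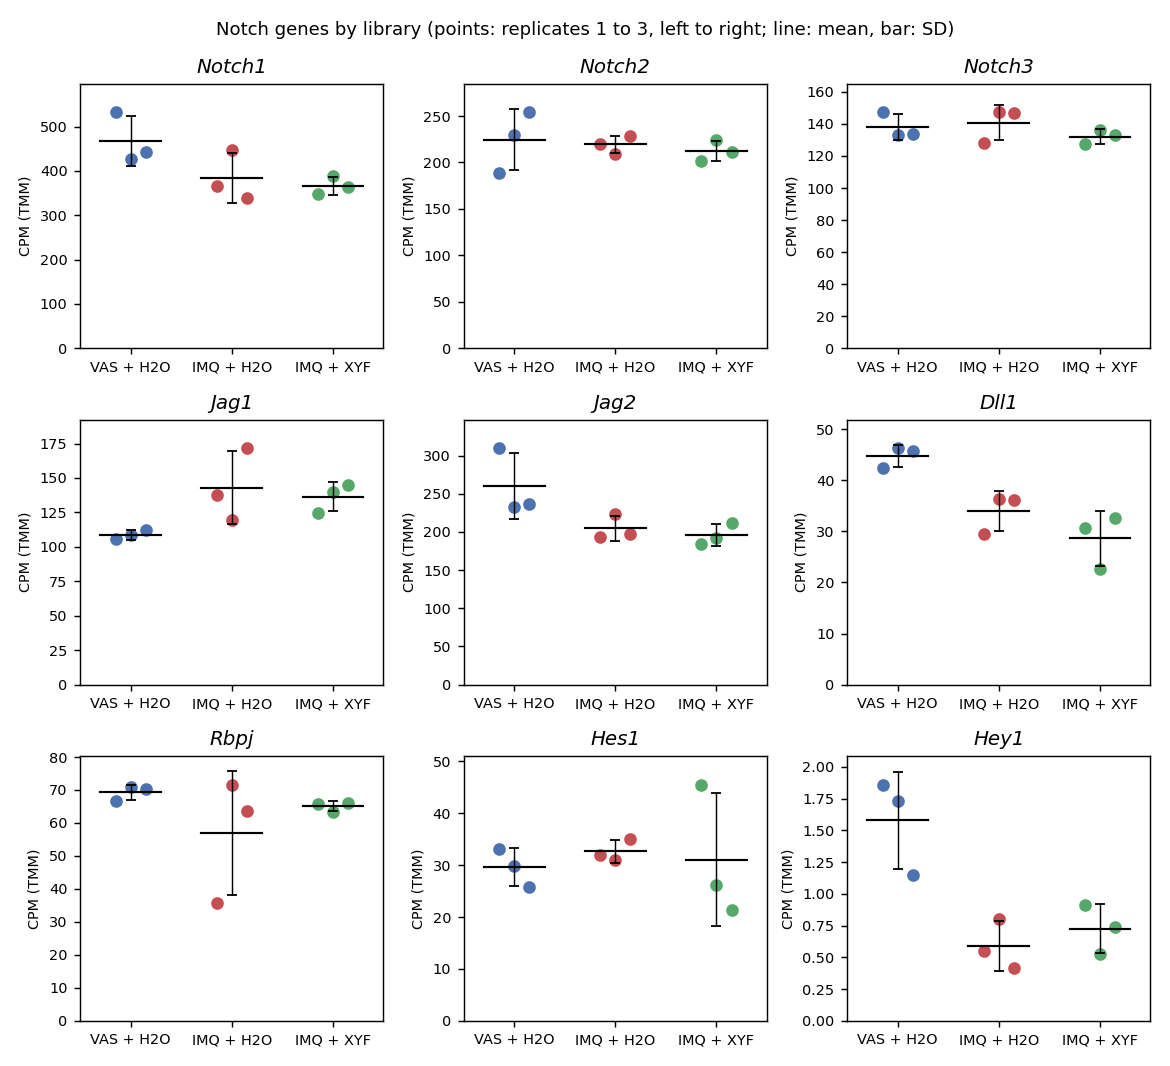
CPM (linear axis from 0) of each of the 9 Notch genes in the 3 libraries of each group. Points are libraries, horizontal lines are group means and bars are SD (n = 3). Jag1 was higher, and Jag2, Dll1 and Hey1 lower, in every imiquimod library than in every VAS + H2O library.

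The first comparison asked what imiquimod did to these genes. Against VAS + H2O, the IMQ + H2O epidermis had less Dll1 and less Hey1, while Jag1 stood 1.30-fold higher and Jag2 at 0.781 of the control level without passing the test. No receptor passed the test, nor did Rbpj or Hes1. Of the 9 genes, 2 were called lower and 0 higher at an adjusted p of at most 0.05 in edgeR's quasi-likelihood test, where 9.41% of the 18009 genes tested were called lower and 12.7% higher. The 22.2% of members called was thus close to the 22.1% of all genes tested. Hey1 alone met the study's definition of a differentially expressed gene (DEG), which adds a log2 fold change of at least 1, as did 4.04% of all genes in the downward direction. In 4 of the 9 genes the groups did not overlap, which was the case for 44.5% of the genes that passed the filter over 9 libraries. Without the second VAS + H2O library, 0 of the 9 were called, in a fit that called 1446 of 18608 genes, against 3986 of 18009 with all 6 libraries. The count was also 0 without the first VAS + H2O library or the first or the third IMQ + H2O library. Those fits called 1782, 2148 and 2131 genes. As in any bulk sample, fewer cells of a type and less RNA per cell cannot be told apart.

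Among the receptors, Notch1 (GRCm38, chr2:26457903-26516663, minus strand) is the principal receptor of keratinocytes. It had 533, 428 and 443 CPM in the VAS + H2O libraries, 366, 447 and 339 CPM in IMQ + H2O, and 347, 389 and 363 CPM in IMQ + XYF, replicates 1 to 3 in each. The second IMQ + H2O library lay inside the VAS + H2O range, whereas all IMQ + XYF libraries lay below it. The log2 fold change was -0.30 ± 0.13 (SE) in IMQ + H2O against VAS + H2O, with an edgeR adjusted p of 0.153 and a 95% interval of -0.62 to 0.02. Notch2 (chr3:98013527-98150361, plus strand) measured 189, 229.6 and 254 CPM, then 220.2, 209.6 and 228 CPM, then 202, 224 and 212 CPM in the same order. Its imiquimod groups lay within the range of VAS + H2O, and IMQ + H2O differed by -0.05 on the log2 scale with an interval of -0.33 to 0.24. Notch3 (chr17:32120820-32166852, minus strand), known from vascular smooth muscle and also present in suprabasal keratinocytes, measured 147, 133 and 134 CPM, then 128, 147 and 147 CPM, then 127, 136 and 133 CPM. Its log2 fold change under imiquimod was 0.02 with an interval of -0.19 to 0.22. Reads of Notch2 could be shared with Gm42820, an annotated transcript of unknown status on the same strand that covers 541 of its exon bases and had 51 to 96 counts, against at least 6378 for Notch2.

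Of the ligands, Dll1 alone passed the test in this comparison. Jag1 (chr2:137081456-137116644, minus strand), a Jagged ligand found in suprabasal keratinocytes and a known target of Wnt and Notch signals, had 105, 109 and 112 CPM in VAS + H2O, 138, 119.6 and 172 CPM in IMQ + H2O, and 125, 139.8 and 145 CPM in IMQ + XYF. Every imiquimod library was above every control library. The log2 fold change in IMQ + H2O was 0.38 ± 0.13, and its edgeR adjusted p of 0.0852 missed the threshold although the 95% interval of 0.06 to 0.70 lay above 0. Jag1 passed in 1 of 6 fits with a library left out, the one without the second IMQ + H2O library (edgeR adjusted p = 0.0354). In these fits its adjusted p reached 0.197. Its log2 fold change ranged from 0.23, without the third IMQ + H2O library, to 0.53. Jag2 (chr12:112907819-112929776, minus strand), the Jagged ligand of the basal layer, had 309.6, 233 and 237 CPM, then 193, 224 and 197 CPM, then 185, 192 and 212 CPM. Here every imiquimod library was below every control library, by a log2 fold change of -0.36 ± 0.13 in IMQ + H2O (edgeR adjusted p = 0.0909).

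Dll1 (chr17:15367354-15376872, minus strand), a Delta ligand expressed by basal keratinocytes and linked there to differentiation of their neighbours, had 42.3, 46.3 and 45.8 CPM in VAS + H2O, 29.5, 36.4 and 36.2 CPM in IMQ + H2O, and 30.7, 22.5 and 32.6 CPM in IMQ + XYF. The groups did not overlap, and Dll1 was lower in IMQ + H2O by a log2 fold change of -0.41 ± 0.11 (edgeR adjusted p = 0.0403, 95% interval -0.67 to -0.15). This call rested on all 6 libraries, since leaving out any of them raised the adjusted p to between 0.0645 and 0.121 (0.121 without the second VAS + H2O library), while the log2 fold change stayed between -0.45 and -0.28. The long non-coding RNA A930024N18Rik shares 867 exon bases with Dll1 on the opposite strand and had 31 to 130 counts, against 731 to 2002 for Dll1.

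**Figure D2:**
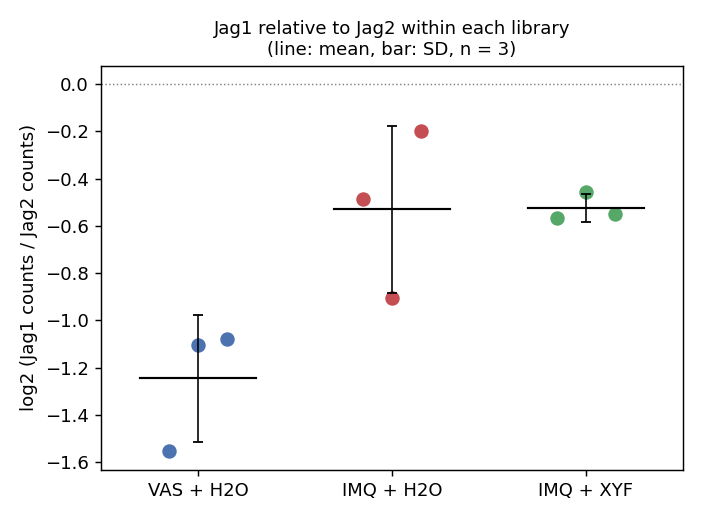
The log2 ratio of Jag1 to Jag2 counts within each library, by group, with means and SD (n = 3); 0 on the vertical axis would be equal counts. The VAS + H2O libraries lay between -1.55 and -1.08, and all 6 imiquimod libraries above them, between -0.91 and -0.20.

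The ratio of Jag1 to Jag2 was taken within each library, where scaling between libraries cancels. It was chosen after the values of both genes had been seen, with fold changes of opposite sign that did not pass the test under imiquimod, so it is given as a description with no test. The log2 ratio of Jag1 to Jag2 counts was -1.55, -1.10 and -1.08 in VAS + H2O, -0.49, -0.91 and -0.20 in IMQ + H2O, and -0.57, -0.46 and -0.55 in IMQ + XYF. Its mean was 0.72 higher in IMQ + H2O than in VAS + H2O (SD of 0.35 and 0.27, n = 3), and leaving out single libraries gave 0.55 to 0.90. Per kilobase, Jag1 made up 20.6% to 25.2% of the summed level of the 3 ligands in VAS + H2O, 28.3% to 38.6% in IMQ + H2O and 33.2% to 36.2% in IMQ + XYF. By this length Jag2 was the larger share in each library, whereas by the length of all exons Jag1 exceeded it in the third IMQ + H2O library, at 29.4 against 28.3 CPM per kilobase.

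Rbpj (chr5:53466152-53657362, plus strand), through which the Notch receptors act on DNA, had 66.7, 70.9 and 70.4 CPM in VAS + H2O, 35.9, 71.7 and 63.7 CPM in IMQ + H2O, and 65.9, 63.4 and 66.0 CPM in IMQ + XYF. The first IMQ + H2O library stood alone at the bottom, and the other 8 lay within 63.4 to 71.7 CPM. The log2 fold change in IMQ + H2O was -0.29 ± 0.24 (edgeR adjusted p = 0.402), and without that library it was close to 0, at -0.01. The processed pseudogene Rbpj-ps3 had 144 to 383 counts, so a part of the reads of this family could be assigned to either copy.

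Of the targets, Hes1 (chr16:30064384-30067796, plus strand), a repressor active in spinous keratinocytes, had 33.2, 29.9 and 25.8 CPM in VAS + H2O, 32.0, 30.9 and 35.1 CPM in IMQ + H2O, and 45.5, 26.2 and 21.4 CPM in IMQ + XYF. The highest and the lowest of these 9 values both came from the XYF-treated mice. Against VAS + H2O, the IMQ + H2O libraries differed by 0.13 ± 0.12 on the log2 scale (edgeR adjusted p = 0.479, 95% interval -0.16 to 0.41). Hey1 (chr3:8663359-8667256, minus strand), a repressor best known from vessels and heart, had 1.86, 1.73 and 1.15 CPM, then 0.553, 0.806 and 0.416 CPM, then 0.911, 0.524 and 0.741 CPM. These rested on 88, 57 and 40 counts, then 16, 31 and 18 counts, then 58, 17 and 26 counts. No IMQ + H2O library reached the lowest VAS + H2O library, and the log2 fold change was -1.43 ± 0.35 (edgeR adjusted p = 0.0323), a fall to 0.371 of the control level. Genes of mural cells and smooth muscle, of cartilage and of dermal fibroblasts were lower in the same libraries, with no overlap between IMQ + H2O and VAS + H2O in any of the 3 summed levels. The 6 cartilage genes in the table, of which 1 or 2 were at 0 in a library, summed to 151 to 359 CPM in VAS + H2O, 29.8 to 69.4 CPM in IMQ + H2O and 107 to 165 CPM in IMQ + XYF. Fibroblast genes summed to 72.9 to 646, 48.0 to 53.2 and 73.5 to 210 CPM in the same order, with 0 of 7 at 0. Endothelial genes summed to 6.24 to 14.9 CPM in VAS + H2O and 6.73 to 10.0 CPM in IMQ + H2O. Their part in the Hey1 result was not tested. Without the second VAS + H2O library, which had the most mural and dermal reads, the Hey1 log2 fold change was -1.35 with an adjusted p of 0.0917. The call held in 2 of 6 fits with a library left out, and was lost without the first VAS + H2O library (adjusted p = 0.0978) and without the first or the third IMQ + H2O library (0.094 and 0.0879).

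**Figure D3:**
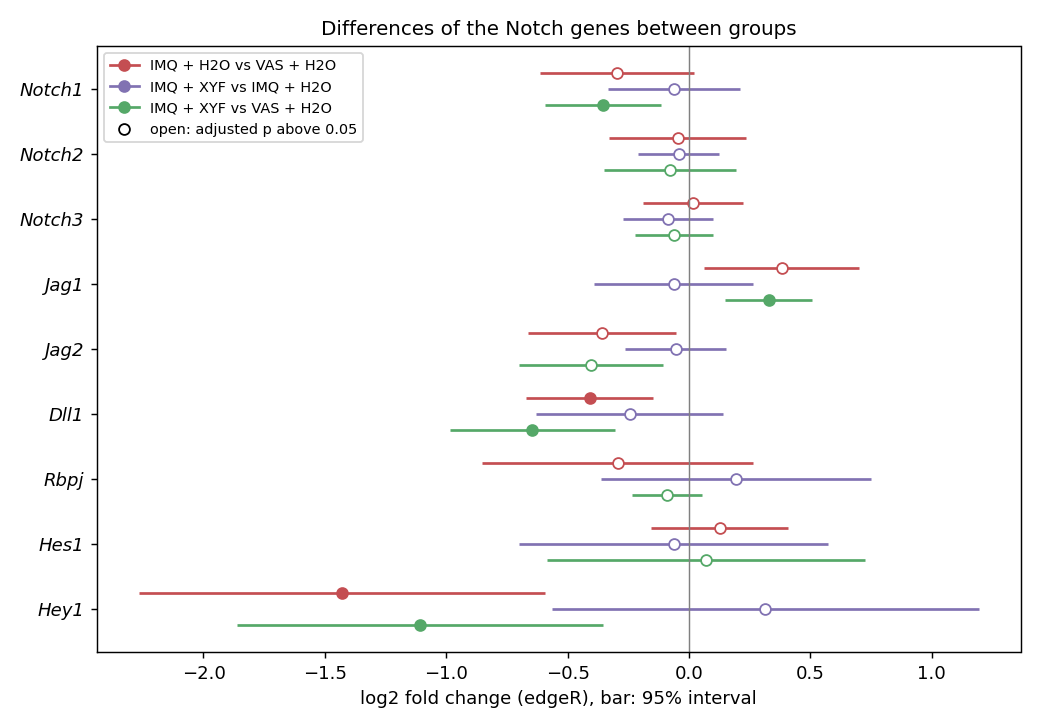
log2 fold changes (edgeR) of the 9 Notch genes in the 3 comparisons, with 95% intervals as bars. Filled points have an adjusted p of at most 0.05. All intervals for IMQ + XYF against IMQ + H2O include 0, and those of Hey1, Hes1 and Rbpj are the widest in that comparison.

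The second comparison asked whether XYF altered the Notch genes of imiquimod-treated epidermis. None of the 9 passed, with edgeR adjusted p values of 1 throughout, unadjusted p values of 0.178 to 0.823, and 0 genes at an unadjusted p under 0.05. DESeq2 called 0 of the 9 as well. In this comparison edgeR called 0.0281% of the 17793 genes tested, which is 5 genes, and DESeq2 called 165 genes. The groups overlapped for all 9 genes, against non-overlap in 10.7% of genes. The intervals show how much the data leave room for. For the receptors the 95% intervals of the log2 fold change were -0.33 to 0.21 (Notch1), -0.21 to 0.13 (Notch2) and -0.27 to 0.10 (Notch3). For Jag1 and Jag2 the intervals were -0.39 to 0.27 and -0.26 to 0.16. Dll1 had the lowest estimate, -0.24, with an interval of -0.63 to 0.14. The intervals of Rbpj (-0.36 to 0.75), Hes1 (-0.70 to 0.58) and Hey1 (-0.57 to 1.19) were wider. The Jag1 to Jag2 ratio differed by 0.01 on the log2 scale between IMQ + XYF and IMQ + H2O.

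The third comparison set IMQ + XYF against VAS + H2O, and so shares each of its groups with another comparison. Of the 9 genes, 4 were called, Jag1 higher and Notch1, Dll1 and Hey1 lower, where 16.7% of the 17954 genes tested were called higher and 12% lower. Hey1 was again the only DEG, as were 3.05% of all genes in the downward direction. The groups did not overlap for 6 of the 9 genes, against 46.8% of genes. The log2 fold changes were 0.33 ± 0.08 for Jag1 (edgeR adjusted p = 0.0192), -0.35 ± 0.10 for Notch1 (adjusted p = 0.0406), -0.65 ± 0.14 for Dll1 (adjusted p = 0.0171) and -1.11 ± 0.32 for Hey1 (adjusted p = 0.0408). For the same genes the IMQ + H2O group differed from VAS + H2O by 0.38, -0.30, -0.41 and -1.43. Jag2, with a log2 fold change of -0.40 ± 0.12, had an adjusted p of 0.051 and was not called. Rbpj differed by -0.09 and did not overlap between the groups, with an adjusted p of 0.303. Without the second VAS + H2O and the second IMQ + XYF library, which had the most skeletal muscle reads, none of the 4 genes was called (adjusted p = 0.0506 for Dll1, 0.0684 for Notch1, 0.11 for Jag1 and 0.198 for Hey1), with 2 libraries a group and log2 fold changes of -0.46, -0.44, 0.33 and -0.84 in that order. Over all genes, that fit called 2466 of 18450, against 5152 of 17954 with all 6 libraries. Leaving out any single library left 1 or 2 member calls, in fits that called 3221 to 4544 genes.

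The rest of the pathway was followed in 71 further genes sorted by role. In IMQ + H2O against VAS + H2O, 61 of them could be tested, of which 2 were called higher and 8 lower (16.4%, against 22.1% of all genes), with a median log2 fold change of -0.12 against -0.03 over all genes. Against VAS + H2O, 63 were tested in IMQ + XYF and 17 were called, 6 higher and 11 lower (27.0%, against 28.7% of all genes). Leaving out the first or the second VAS + H2O library or the first or the third IMQ + H2O library reduced the 10 calls to 6, 3, 4 and 4. Calls over all genes fell from 3986 to 1782, 1446, 2148 and 2131 in the same fits. Leaving out the second VAS + H2O and the second IMQ + XYF library reduced the 17 to 5, and the calls over all genes from 5152 to 2466. Of the 59 tested between IMQ + XYF and IMQ + H2O, edgeR called 0, and 0 had an unadjusted p under 0.05.

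**Figure D4:**
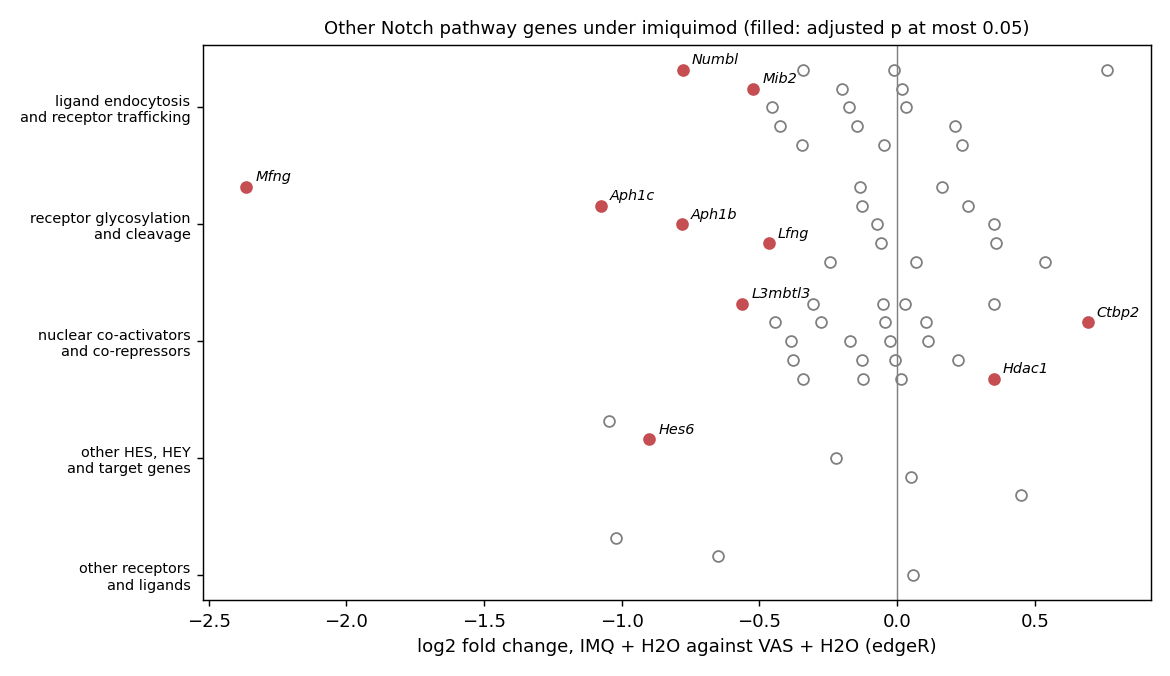
log2 fold changes (edgeR, IMQ + H2O against VAS + H2O) of the 61 tested Notch pathway genes outside the 9, in rows by role; the vertical offset within a row only separates points. The 10 filled and named genes have an adjusted p of at most 0.05, with Mfng at -2.36 farthest to the left.

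Of the 15 enzymes that act on the receptor itself, 4 were called in IMQ + H2O against VAS + H2O, all lower (26.7%, against 22.1% of all genes). In IMQ + XYF against VAS + H2O 6 were called, 2 higher and 4 lower (40%, against 28.7% of all genes). Mfng, one of the Fringe enzymes, had 1.92, 2.21 and 0.917 CPM in VAS + H2O, 0.414, 0.208 and 0.370 CPM in IMQ + H2O, and 0.346, 0.401 and 0.456 CPM in IMQ + XYF. It was lower in every imiquimod library, by a log2 fold change of -2.36 ± 0.45 in IMQ + H2O (edgeR adjusted p = 0.0165), on 8 to 91 counts a library. Lfng, another Fringe enzyme and the one whose promoter is printed above, had 15.9, 15.7 and 14.4 CPM, then 10.8, 11.3 and 11.4 CPM, then 13.7, 9.43 and 11.8 CPM. Lfng fell by 0.47 on the log2 scale in IMQ + H2O (edgeR adjusted p = 0.0281), and its difference of -0.39 in IMQ + XYF against VAS + H2O had an adjusted p of 0.0998. The remaining calls were the γ-secretase subunits Aph1b and Aph1c, with log2 fold changes of -0.78 and -1.08 (adjusted p = 0.0135 and 0.0138), close copies of each other whose reads may be divided uncertainly. Adam17, a protease able to cleave Notch, rose from 62.2, 96.2 and 66.8 CPM in VAS + H2O to 113, 120.5 and 109 CPM in IMQ + XYF (log2 fold change 0.61, edgeR adjusted p = 0.0347), while its difference of 0.54 in IMQ + H2O had an adjusted p of 0.064.

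Of the 16 genes of ligand endocytosis and receptor trafficking, 2 were called in IMQ + H2O (12.5%, against 22.1% of all genes), and both were lower. Numbl, a relative of the Notch inhibitor Numb, had 41.9, 42.5 and 33.3 CPM in VAS + H2O and 23.6, 27.9 and 17.9 CPM in IMQ + H2O (log2 fold change -0.78, edgeR adjusted p = 0.0277). Mib2, a ubiquitin ligase that acts on Notch ligands, differed by -0.52 (adjusted p = 0.0157). Both were also called lower in IMQ + XYF against VAS + H2O, at -0.96 and -0.46. They were the only calls of this list there (12.5%, against 28.7% of all genes). Their better known relatives Numb and Mib1 had log2 fold changes of 0.02 and -0.01 in IMQ + H2O, with edgeR adjusted p values of 0.906 and 0.978.

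Of the 24 nuclear partners, 22 could be tested and 3 were called in IMQ + H2O (13.6%, against 22.1% of all genes). Ctbp2 and Hdac1, co-repressors used by many factors besides Rbpj, were higher by 0.69 and 0.35 on the log2 scale (edgeR adjusted p = 0.0227 and 0.0228), and L3mbtl3, a chromatin protein that binds Rbpj, was lower by a log2 fold change of -0.56 (adjusted p = 0.0227). In IMQ + XYF against VAS + H2O, 7 were called (31.8%, against 28.7% of all genes). Of these, Hdac1 (0.49), Ctbp2 (0.72) and Kat2a (0.31) were higher, and Cir1 (-0.47) and L3mbtl3 (-0.42) were among the 4 that were lower. The Mastermind-like co-activators Maml1, Maml2 and Maml3 had log2 fold changes of -0.27, -0.31 and 0.03 in IMQ + H2O, with edgeR adjusted p values of 0.104, 0.313 and 0.831. Maml1 was called lower in IMQ + XYF against VAS + H2O, at -0.30 (adjusted p = 0.0471).

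Among other Hes and Hey genes and targets, 5 of 10 had enough reads in IMQ + H2O against VAS + H2O. Hes6, a relative of Hes1 that is known to oppose it, had 10.1, 9.01 and 8.97 CPM in VAS + H2O, 4.77, 6.32 and 4.12 CPM in IMQ + H2O, and 4.46, 4.47 and 4.33 CPM in IMQ + XYF. It was lower in each imiquimod library, with log2 fold changes of -0.90 in IMQ + H2O (edgeR adjusted p = 0.0209) and -1.08 in IMQ + XYF (adjusted p = 0.00203). Nrarp, a target that limits Notch signalling in return, had 82.2, 60.0 and 62.8 CPM, then 79.5, 90.1 and 113 CPM, then 104, 83.7 and 106 CPM. Its log2 fold change was 0.45 in IMQ + H2O (adjusted p = 0.0995), and it was called higher in IMQ + XYF against VAS + H2O, at 0.52 (adjusted p = 0.0402). Hey2 had 3, 8 and 15 counts in VAS + H2O, 0 in each IMQ + H2O library, and 7, 0 and 7 counts in IMQ + XYF. Heyl had 0 to 19 counts a library, and Hes5 had 4 counts in the second VAS + H2O library and 0 in the other 8. Hey2 and Hes5 did not pass the filter on low counts in any comparison. Heyl passed it only in IMQ + XYF against VAS + H2O, with a log2 fold change of 0.50 (edgeR adjusted p = 0.721). Notch4 and Dll4, best known from endothelium, had 14 to 50 and 0 to 21 counts, with log2 fold changes of -0.65 and -1.02 in IMQ + H2O and edgeR adjusted p values of 0.279 and 0.278.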

How the data were processed

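Total RNA of epidermal ear sheets was made into TruSeq libraries. The submitters' processing notes name STAR 2.5, FastQC, Cuffnorm and DESeq 1.22.1 with GRCm38, without roles, and the study's methods name Ensembl release 90 as its reference. The authors deposited whole-number counts per gene, with no normalization. The counting tool and its strand setting are not given in the sources used here, so reads shared with antisense or overlapping genes cannot be told apart. Samples were grouped by their titles.

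R 4.3.3 with edgeR 4.0.16 was used. Each pair of groups was fitted on its 6 libraries with filterByExpr, TMM and the quasi-likelihood test, and p-values were adjusted over all genes tested by the method of Benjamini and Hochberg. Genes with an adjusted p of at most 0.05 were called. Intervals (95%) and standard errors came from the test statistic. DESeq2 1.42.0, RLE factors, other filters, all 9 libraries in 1 fit, a replicate block and leaving out libraries were alternatives. The scripts were tested on simulated counts. Positions came from GENCODE M21 and promoters from RefSeq.

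The 9 genes, the pathway and marker lists and the tests were chosen with earlier results of these data known. Named were all 9 genes, up to 12 called genes of lowest p per comparison among the other pathway genes, 6 that were named whatever they did (Notch4, Dll4, Hes5, Hey2, Heyl, Nrarp), and the 2 genes most like each member. Numb, Mib1, Maml1, Maml2 and Maml3 were named after their values were seen, for their roles. Replicates of a group differed by 23.8 to 75.0 in chi-square per gene, so none was counted as a repeat of another. The highest values, 75.0 and 70.9, were both of pairs with the third IMQ + H2O library.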

Additional observations from a re-analysis of the deposited data

How the results depend on the processing

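With DESeq2, RLE size factors or at least 10 counts in every library, each of the 9 genes kept its direction and its side of the threshold in every comparison, except that DESeq2 called Jag2 in IMQ + XYF against VAS + H2O. With no filter on low counts, 0 members and 0 DEGs were called in IMQ + H2O against VAS + H2O, and 2 members and 0 DEGs in IMQ + XYF against VAS + H2O. Over all genes that setting called 3050 of 29847 and 4229 of 29963, in place of 3986 of 18009 and 5152 of 17954. In 1 fit over 9 libraries Jag1 was called in IMQ + H2O against VAS + H2O (adjusted p = 0.043) and Dll1 was not (0.0706). That fit called 3 members in IMQ + XYF against VAS + H2O, without Notch1 (0.0613) and Jag1 (0.0805) and with Jag2 (0.0365). Over all genes DESeq2 called 165 in IMQ + XYF against IMQ + H2O, against 5 in edgeR. Deviations from the group means correlated at -0.13 to 0.11 between libraries of the same replicate number, and at -0.22 to 0.17 between different numbers. These values cannot show whether mice or batches were shared. The replicate block left 2 members and 0 DEGs in IMQ + XYF against VAS + H2O, with Notch1 and Hey1 at edgeR adjusted p of 0.0982 and 0.0795. That block changed no other call of a member. It moved the calls over all genes from 3986 to 3002, from 5 to 0 and from 5152 to 3753. Without the 2 libraries with the most skeletal muscle reads, an alternative added after seeing the data, 0 members, 0 DEGs and 5 other pathway genes were called in IMQ + XYF against VAS + H2O. Over all genes that fit called 2466, against 5152 with all 6 libraries. Leaving out each library in turn gave 0 to 2 members, 0 to 1 DEGs and 3 to 10 other pathway genes in IMQ + H2O against VAS + H2O, with 0 members without the first or second VAS + H2O or the first or the third IMQ + H2O library and 3 pathway genes without the second VAS + H2O library. It gave 1 to 2, 0 to 1 and 9 to 13 in IMQ + XYF against VAS + H2O, the 9 without the third IMQ + XYF library, and 0 throughout in IMQ + XYF against IMQ + H2O. Over all genes these fits called 1446 to 3077 in IMQ + H2O against VAS + H2O and 3221 to 4544 in IMQ + XYF against VAS + H2O. In such fits small log2 fold changes turned sign: in IMQ + H2O against VAS + H2O, Notch2 ranged from -0.16 to 0.087 and Notch3 from -0.013 to 0.12. In IMQ + XYF against IMQ + H2O, Notch1 ranged from -0.15 to 0.061, Jag1 from -0.18 to 0.084, Jag2 from -0.12 to 0.015, Rbpj from -0.056 to 0.39 and Hes1 from -0.46 to 0.14. In IMQ + XYF against VAS + H2O, Notch2 ranged from -0.19 to 0.041 and Hes1 from -0.30 to 0.28. The cause was not tested. Depth limits Hey1, at 16 to 88 counts, most among the 9 genes.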

Other observations

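The genes whose log2 CPM followed each member most closely over the 9 libraries were searched for among 10154 genes (10155 for Hey1) with a mean log2 CPM of at least 3. The 9 libraries share the 3 groups and the same normalization, so a gene that differs between the groups correlates with any other that does, and no p is given. Closest to Jag1 were Rtel1 (Pearson r = 0.97, Spearman rho = 1) and Ddx39b (r = 0.97, rho = 0.98), a DNA helicase and an RNA helicase. Closest to Jag2 were Samd10 and Plekhg5 (r = 0.98 and 0.97), and Plekhg5 also followed Notch1 (r = 0.97), next to Ptprg (r = 0.98). Celf2 and Parp6 were closest to Dll1 (both r = 0.97), and Fkbp9 and Slc22a17 to Hey1 (r = 0.99 and 0.98). Apc and Rprd2 were closest to Rbpj (r = 0.99 and 0.98), but with rho of 0.73 and 0.68. The first IMQ + H2O library was far the lowest for Rbpj, and its part in r was not tested. For Notch2 (Fam60a and Gon4l, r = 0.92 and 0.91), Notch3 (N6amt1 and Derl2, r = 0.89 and 0.87) and Hes1 (Tor1a and Paip1, r = 0.85 and 0.83) the closest genes were less alike. Among the 9 themselves, Notch1 and Jag2 had r = 0.92 and Jag1 and Hey1 r = -0.92 over the 9 libraries.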
